A study of Arabidopsis thaliana with 24 samples.

Results

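Late embryogenesis abundant (LEA) proteins are small, mostly hydrophilic proteins that accumulate in seeds as they dry and in vegetative tissue under drought, cold or abscisic acid. Many are unstructured in water and fold partly when water is withdrawn, and they are known for protecting membranes and enzymes in the dry state. In embryos their genes are switched on late in maturation by transcription factors such as ABI3 and ABI5, which act with abscisic acid, while some dehydrins and the COR15 pair are better known from the cold response of leaves.

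The 51 LEA genes of Arabidopsis thaliana were followed here through a total RNA-seq study of 2 nucleotidyltransferases, URT1 and HESO1, which add uridines to the 3′ ends of RNAs. The 51 genes were taken by their gene identifiers from 33243 counted genes. No measured value entered that rule, but the list was chosen with earlier results of these data known. The genes fall into 9 families: 18 LEA_4, 10 dehydrins, 6 seed maturation proteins (SMP), 4 LEA_3, 3 LEA_1, 3 LEA_2, 3 PvLEA18, 2 LEA_5 and 2 AtM genes. All 51 had the same start and end in the deposited tables as in the TAIR10.1 RefSeq annotation.

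Dry mature seeds and unopened flower buds were collected from 4 genotypes, the double mutant heso1-4 urt1-1, the single mutants urt1-1 and heso1-4, and WT, with 3 biological replicates in each of the 8 groups and 24 libraries in all. All plants were of the Columbia (Col-0) accession, each mutant allele came from 1 T-DNA insertion line, and at least 5 plants were pooled per library. Seeds were harvested later than buds and their RNA was extracted by another protocol, so tissue, harvest time and extraction cannot be told apart. Libraries held 19304121 to 38853305 counts in seeds and 23787015 to 39797391 in flowers.

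Levels are given in CPM, a gene's counts scaled to the library's total after that total was adjusted by a TMM scaling factor. A CPM value is thus not a share of the library's raw counts. URT1 was at 4.59 to 5.06 CPM in seeds labelled heso1-4 urt1-1 and 3.18 to 3.67 in urt1-1. It was at 117 to 141 CPM in heso1-4 seeds and 138 to 147 in WT seeds, as the labels say. HESO1 went against its label: it stood at 62.3 to 69.6 CPM in seeds labelled heso1-4 urt1-1 and 234 to 249 in seeds labelled heso1-4, against 0.508 to 0.776 in WT seeds, and it was likewise higher in the corresponding flowers. These counts do not show whether the reads belong to a working HESO1 RNA, so the groups are called here the libraries labelled heso1-4 and heso1-4 urt1-1. One seed library, labelled heso1-4 replicate 3, stood apart in its composition, and 3.70% of its raw counts fell on LEA genes, the lowest share of the 12 seed libraries. In scaled CPM its LEA genes summed to 69662, within the 57825 to 83257 CPM of the WT seed libraries. On that measure the family was not lowest there. The 10 markers of seed storage summed to 75288 to 161309 CPM in seeds and 4.87 to 10.1 CPM in flowers, and 7 floral organ genes summed to 1.65 to 8.08 CPM in seeds and 450 to 691 CPM in flowers.

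The regions before the genes are shown first, since the tissue pattern described below divides the family. Each window is the 250 bases before the annotated start on TAIR10.1, written 5′ to 3′ on the gene's strand, with capitals marking matches on either strand to ACGTG (the core of the abscisic acid response element), CACGTG (the G-box, which holds ACGTG on both strands and so also counts as 2 matches of it), CATGCA (the RY element bound by B3 factors such as ABI3) and CCGAC (the core of the cold and dehydration response element). The first 4 stand before genes that were higher in seeds: EM6 (a group 1 LEA gene), AT3G53040 (LEA_4, with 7 ACGTG matches), and AT2G42560 and AT2G21490, which had the smallest p-values in urt1-1 seeds against WT but did not pass the test. The last 3 stand before genes that were higher in flowers: COR15A, AT2G03740 and ERD10. None of these windows overlapped another annotated gene.
EM6, chr2:16780369-16780618, minus strand: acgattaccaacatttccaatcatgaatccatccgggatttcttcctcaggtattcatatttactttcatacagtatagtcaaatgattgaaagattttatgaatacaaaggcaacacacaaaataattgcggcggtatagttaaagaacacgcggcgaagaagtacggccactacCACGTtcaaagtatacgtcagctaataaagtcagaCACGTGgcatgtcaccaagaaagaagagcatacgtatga
AT3G53040, chr3:19666498-19666747, minus strand: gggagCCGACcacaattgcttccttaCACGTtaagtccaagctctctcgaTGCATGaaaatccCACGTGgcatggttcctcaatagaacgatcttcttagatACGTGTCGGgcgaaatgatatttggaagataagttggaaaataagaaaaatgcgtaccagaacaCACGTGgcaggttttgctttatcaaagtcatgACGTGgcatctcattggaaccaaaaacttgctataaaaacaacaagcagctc
AT2G42560, chr2:17716913-17717162, minus strand: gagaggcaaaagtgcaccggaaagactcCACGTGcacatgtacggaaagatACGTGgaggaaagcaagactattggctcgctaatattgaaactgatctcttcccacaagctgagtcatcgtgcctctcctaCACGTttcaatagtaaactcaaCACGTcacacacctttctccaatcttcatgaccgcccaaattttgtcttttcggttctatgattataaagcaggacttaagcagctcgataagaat
AT2G21490, chr2:9207126-9207375, minus strand: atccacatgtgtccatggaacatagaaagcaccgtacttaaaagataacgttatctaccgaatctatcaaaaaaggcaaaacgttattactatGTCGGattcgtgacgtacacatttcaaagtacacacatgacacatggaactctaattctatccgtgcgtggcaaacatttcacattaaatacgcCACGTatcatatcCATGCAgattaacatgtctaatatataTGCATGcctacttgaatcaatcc
COR15A, chr2:17712331-17712580, minus strand: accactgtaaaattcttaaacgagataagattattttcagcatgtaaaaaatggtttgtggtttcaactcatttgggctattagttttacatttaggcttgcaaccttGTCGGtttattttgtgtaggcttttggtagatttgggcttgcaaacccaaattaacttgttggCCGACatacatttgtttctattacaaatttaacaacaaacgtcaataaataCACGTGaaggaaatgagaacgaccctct
AT2G03740, chr2:1143989-1144238, minus strand: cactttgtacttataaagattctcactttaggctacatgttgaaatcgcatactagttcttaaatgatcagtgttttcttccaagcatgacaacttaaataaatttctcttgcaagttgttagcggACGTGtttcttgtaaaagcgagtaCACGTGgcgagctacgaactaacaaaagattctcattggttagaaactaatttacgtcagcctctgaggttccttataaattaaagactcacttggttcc
ERD10, chr1:7089607-7089856, minus strand: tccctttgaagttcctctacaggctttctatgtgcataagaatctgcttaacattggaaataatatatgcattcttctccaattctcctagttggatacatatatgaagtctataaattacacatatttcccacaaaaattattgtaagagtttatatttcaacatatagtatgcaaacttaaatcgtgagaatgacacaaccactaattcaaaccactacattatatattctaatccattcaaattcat

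In WT plants the family divided by tissue. Of the 50 genes tested, 34 were higher in WT seeds and 14 were higher in WT flowers, and 2 passed the test in neither direction (edgeR's quasi-likelihood test over all 24 libraries, adjusted p under 0.05). The remaining gene, AT3G53770 of LEA_3, had a count of 0 in all 24 libraries. Most genes differ between these tissues: 80.6% of the 23557 genes tested were called, 32.9% higher in seeds and 47.7% higher in flowers. The median log2 fold change of the 50 LEA genes, WT seeds over WT flowers, was 6.99, also with genes at 0 in a tissue set to their bounds, against -0.56 for all genes tested. The 3 WT seed and the 3 WT flower libraries did not overlap in the 34 and the 14 genes called, and overlapped in the other 2 tested. Over all genes tested, called or not, they did not overlap in 83.1%. The scaling widened the gap between tissues. In WT seeds the family held 4.67% to 5.75% of raw counts and summed to 57825 to 83257 CPM. In WT flowers it held 0.174% to 0.221% of raw counts and summed to 1331 to 1701 CPM. Small tissue differences thus depend on the scaling, such as 0.58 ± 0.18 for AT2G46140, called higher in seeds, and those of SAG21 and DI21 below. No fit was run without scaling. Fewer cells of a type and less RNA per cell cannot be told apart in such bulk samples.

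**Figure D1:**
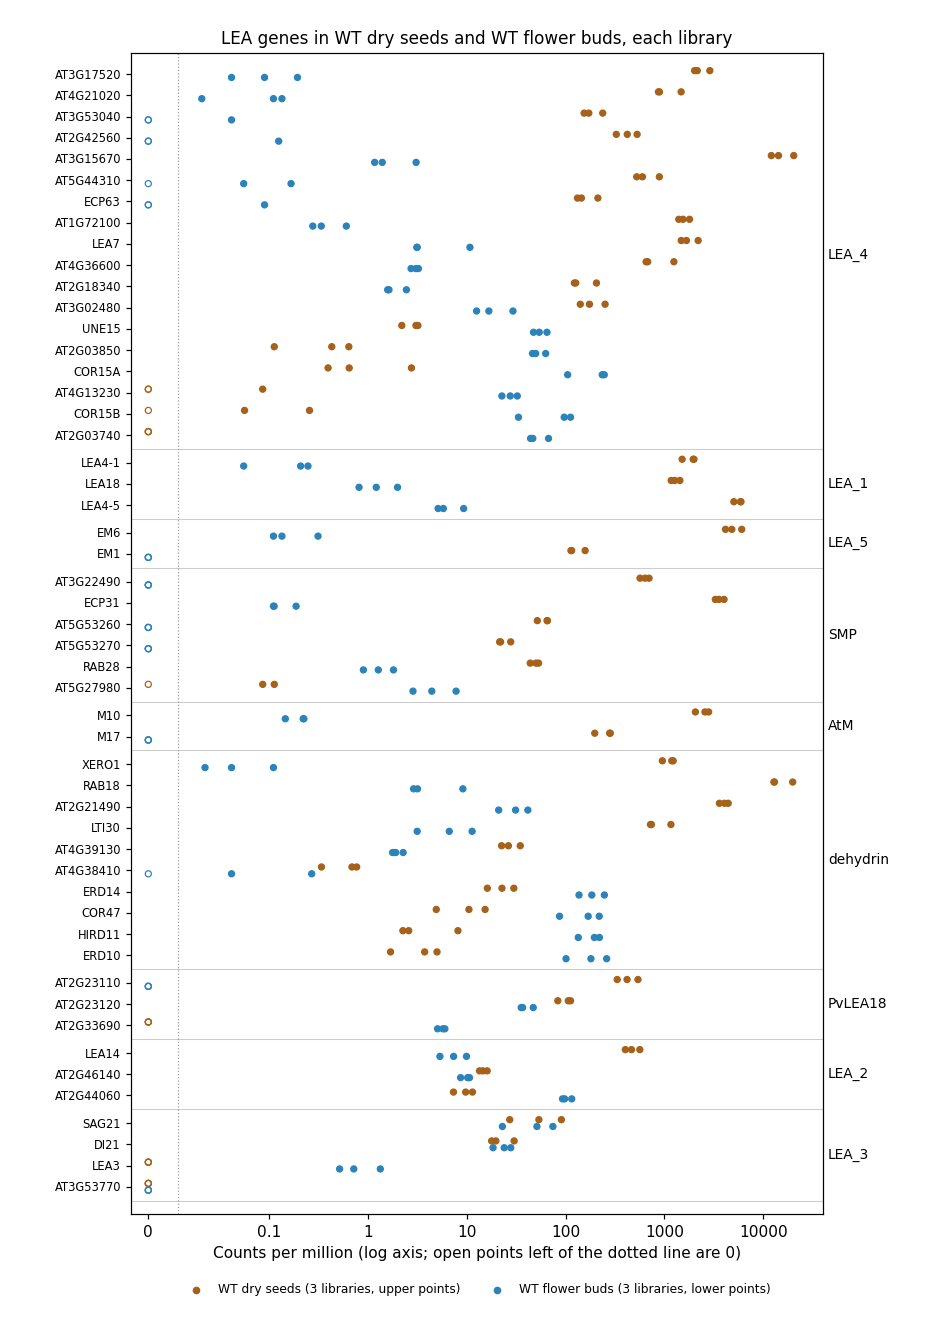
CPM (log axis) of the 51 LEA genes in each WT library, grouped by family and ordered by the fold change within it; brown points are the 3 WT dry seed libraries and blue points, set lower in each row, the 3 WT flower bud libraries, with open points at 0. The 34 seed-high genes have all brown points to the right of the blue ones, and 14 genes show the reverse.

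The seed RNA of the family was dominated by a few genes. Per kilobase of gene span, AT3G15670 of LEA_4 stood at 14095 ± 3887 CPM and RAB18, a dehydrin known for its induction by abscisic acid, at 12986 ± 3428 CPM in WT seeds (SD, n = 3), ranks 11 and 12 among all 33243 genes. Both together carried 45.0% of the family's CPM. Their libraries overlapped, with AT3G15670 at 12061, 14244 and 20334 CPM and RAB18 at 12975, 12805 and 19841 CPM in WT seeds, so their order is within the spread. In WT flowers AT3G15670 had 1.40, 3.07 and 1.17 CPM, and RAB18 had 2.90, 9.14 and 3.17 CPM.

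The next levels belonged to EM6, at 6121 ± 1186 CPM per kilobase, and LEA4-5 of LEA_1, at 5700 ± 515, which also did not differ beyond their spread. EM6 had 4145, 4806 and 6052 CPM in WT seeds, against 0.313, 0.111 and 0.135 CPM in WT flowers. LEA4-5 had 5035, 5948 and 5877 CPM in WT seeds, against 5.80, 9.30 and 5.13 CPM in WT flowers. The tops of the other families in WT seeds were the SMP gene ECP31, the AtM gene M10, AT2G23110 of PvLEA18, LEA14 of LEA_2 and SAG21 of LEA_3. ECP31 had 3272, 3570 and 4009 CPM in WT seeds and 0.188, 0.111 and 0.112 CPM in WT flowers. M10 had 2056, 2568 and 2800 CPM in WT seeds and 0.146, 0.221 and 0.225 CPM in WT flowers. In all, 6 families were led in seeds by a gene above 1000 CPM, and 14 of the 51 genes passed 1000 CPM in WT seeds. In all, 12 LEA genes were among the 100 highest of all genes per kilobase in WT seeds and 24 among the 500 highest. In WT flowers 0 were among the 100 highest and 4 among the 500 highest.

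AT2G23110 had 333, 540 and 419 CPM in WT seeds and a count of 0 in all 3 WT flower libraries. LEA14 had 402, 464 and 564 CPM in WT seeds, against 7.36, 9.94 and 5.35 CPM in WT flowers. SAG21, a gene known from leaf senescence whose protein is sent to mitochondria, had 90.6, 53.7 and 27.2 CPM in WT seeds and 74.4, 51.3 and 22.9 CPM in WT flowers. These 2 sets overlapped, and the log2 fold change of 0.20 ± 0.45 (SE) did not pass the test (edgeR, adjusted p = 0.679). DI21 of the same family, named for its induction by drought, had 30.1, 17.8 and 19.7 CPM in WT seeds and 18.5, 27.9 and 23.9 CPM in WT flowers, and its log2 value of -0.06 ± 0.31, seeds over flowers, also missed the threshold (adjusted p = 0.872 by edgeR). SAG21 overlaps another annotated gene on the same strand, so part of its counts may be shared.

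With genes at 0 in flowers placed by their lower bound, the steepest rises in seeds were those of AT3G22490 (SMP), ECP31, EM6, AT3G17520 (LEA_4) and the dehydrin XERO1. AT3G22490 had 566, 637 and 699 CPM in WT seeds and a count of 0 in every WT flower library. Set against a floor of 3 counts over the 3 flower libraries, it was at least 27161-fold higher in seeds. Among counts of 1 to 20, 66.7% to 77.2% per library were even, and it is not recorded whether both mates of a pair were counted. If each pair counted 2 times, a floor of 3 fragments would be 6 counts and the bound at least 13581-fold, and each bound given here would likewise be 0.5 of its size. The fitted log2 fold change was 14.62 ± 0.35 for ECP31, 14.64 ± 0.43 for EM6, 14.44 ± 0.45 for AT3G17520 and 14.22 ± 0.56 for XERO1 (edgeR, SE; adjusted p = 9.82e-15 or lower in these 4 genes). XERO1 had 953, 1186 and 1226 CPM in WT seeds and 0.0417, 0.111 and 0.0225 CPM in WT flowers. AT3G17520 had 2019, 2149 and 2878 CPM in WT seeds, against 0.0417, 0.194 and 0.0900 CPM in WT flowers. Against the same floor, AT2G23110 was at least 18438-fold, M17 at least 10848-fold, EM1 at least 5513-fold, AT5G53260 at least 2601-fold and AT5G53270 at least 1019-fold higher in seeds. As lower bounds these do not fix the place of such genes beside those with a fitted value. AT3G53040 had 10454 counts in WT seeds and 2 in WT flowers, a ratio of 11890 with a 95% interval of 3291 to 98197 (exact, counting error only; 2133 to 469740 if each pair counted 2 times). AT5G53260 and AT5G53270 share 6.43% and 6.34% of their 50-base windows with other places in the genome, so part of their counts may not be their own. AT4G38410, a dehydrin of low level, passed only narrowly, with a log2 value of 2.45 ± 1.11 for seeds over flowers (adjusted p = 0.0478 by edgeR); without WT flower replicate 2 the value was 1.93 (adjusted p = 0.140), and other settings that lost this call are given with the processing.

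The 14 genes higher in flowers held the acidic dehydrins ERD10, ERD14 and COR47, the small histidine-rich dehydrin HIRD11, and the neighbours COR15A and COR15B, whose proteins are known for protecting chloroplast membranes during freezing. By family they were 6 of 18 LEA_4, 4 of 10 dehydrins, and 1 each of SMP, PvLEA18, LEA_2 and LEA_3, with 0 among LEA_1, LEA_5 and AtM. The highest level per kilobase in WT flowers was that of ERD14, at 149 ± 43.5 CPM, followed by HIRD11 at 133 ± 31.9, ERD10 at 106 ± 46.7 and COR15A at 103 ± 41.5 (SD, n = 3), 4 values that lie within each other's spread. ERD14 had 29.9, 22.7 and 16.1 CPM in WT seeds and 184, 247 and 137 CPM in WT flowers. HIRD11 had 8.14, 2.59 and 2.26 CPM in WT seeds, against 220, 134 and 195 CPM in WT flowers. ERD10 had 5.001, 3.75 and 1.69 CPM in WT seeds and 180, 260 and 101 CPM in WT flowers, and COR47 had 15.3, 10.5 and 4.91 CPM in WT seeds and 219, 169 and 86.7 CPM in WT flowers.

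The 5 steepest falls in seeds, by fitted fold or by the bound the floor gives, were those of AT2G03740, COR15B, AT4G13230, COR15A and AT2G03850, all of LEA_4. AT2G03740 had a count of 0 in all WT seed libraries and 46.6, 44.2 and 67.1 CPM in WT flowers, so it was at least 991-fold lower in seeds. COR15B had 0.256, 0 and 0.0565 CPM in WT seeds, against 33.3, 112 and 96.8 CPM in WT flowers, which gives -9.76 ± 1.20 on the log2 scale, seeds over flowers (adjusted p = 2.99e-07 by edgeR). AT4G13230 had 0, 0.0862 and 0 CPM in WT seeds, against 32.4, 27.5 and 22.7 CPM in WT flowers. These are 2 counts in the WT seed libraries together and 3558 in the WT flower libraries, a flower-over-seed ratio of 782 with a 95% interval of 216 to 6460 (140.2 to 30906 if each pair counted 2 times). COR15A had 2.76, 0.647 and 0.395 CPM in WT seeds and 105, 235 and 246 CPM in WT flowers (log2 fold change -7.35 ± 0.95, edgeR, adjusted p = 5.87e-07). AT2G03850 had 0.641, 0.431 and 0.113 CPM in WT seeds and 49.8, 46.2 and 62.9 CPM in WT flowers (log2 fold change -7.07 ± 0.78, edgeR, adjusted p = 6.71e-08). The flower tops of the remaining families were AT2G44060 (LEA_2), with 9.75, 11.4 and 7.34 CPM in WT seeds and 93.0, 115 and 97.7 CPM in WT flowers, and AT5G27980 (SMP), with 0, 0.0862 and 0.113 CPM in WT seeds and 7.80, 4.43 and 2.86 CPM in WT flowers. In PvLEA18 the flower top was AT2G23120, which was nevertheless higher in seeds, at 83.4, 106 and 112 CPM in WT seeds against 47.1, 36.7 and 35.6 CPM in WT flowers. The other genes higher in flowers were UNE15, AT2G33690 and LEA3. UNE15 had a log2 fold change of -4.29 ± 0.36 and another gene overlapping it on the same strand. AT2G33690 and LEA3 were at least 106-fold and at least 16.1-fold lower in WT seeds, where both had counts of 0.

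Neighbours on the chromosome did not always share a tissue. Of 8 neighbouring pairs, COR47 with ERD10 and COR15B with COR15A were both higher in flowers, and the ends of COR15B and COR15A lie 7 bases apart. Only 1 protein-coding gene separates COR15A from AT2G42560, which was higher in seeds by 13.05 on the log2 scale, while COR15A fell by 7.35 on that scale. The pairs LTI30 with XERO1, AT3G22490 with ECP31, AT5G53260 with AT5G53270, M17 with M10 and AT2G23110 with AT2G23120 were all higher in seeds. Within the last pair the sizes were far apart, at least 14.17 for AT2G23110 and 1.34 ± 0.28 for AT2G23120.

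The windows before the start sites also divided with tissue, as a description. At least 1 ACGTG stood in 30 of the 34 windows of seed-high genes (88.2%), in 5 of 14 windows of flower-high genes (35.7%) and in 22.9% of the windows of 27431 protein-coding genes. At least 2 matches, which a single CACGTG already gives, stood in 79.4% of the seed-high windows and 8.84% of all. CACGTG stood in 58.8% of seed-high windows, 14.3% of flower-high windows and 6.49% of all. CCGAC, the letters bound by the CBF factors of the cold response, stood in 44.1% of seed-high windows, 14.3% of flower-high windows and 12.0% of all, and CATGCA in 20.6%, 14.3% and 8.44%. The seed-high genes LTI30, AT2G23120, ECP31 and M17 had no ACGTG in their windows, which are not printed. Among the windows printed above, AT3G53040 holds 7 ACGTG matches, AT2G42560 holds 5, and ERD10 holds none of the 4 motifs. COR15A holds 2 CCGAC and 1 CACGTG, and AT2G03740 holds 3 ACGTG although its counts in WT seeds were 0. A match is not a bound site, and the windows were not tested.

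**Figure D2:**
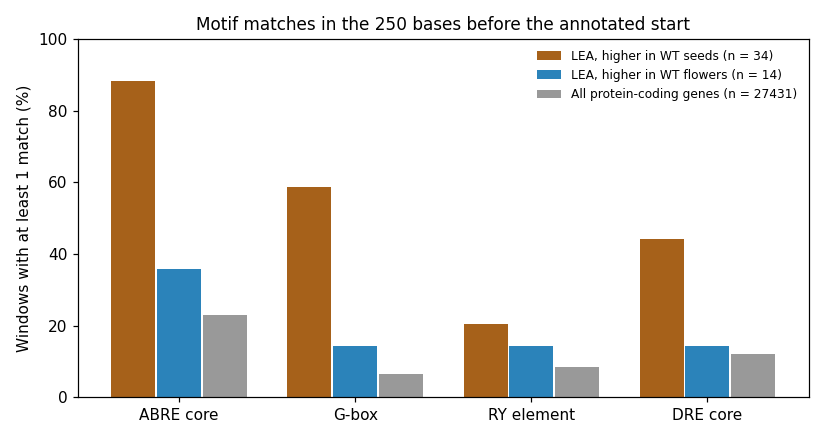
Percentage of 250-base windows with at least 1 match to the abscisic acid response element (ABRE) core, the G-box, the RY element and the cold and dehydration response element (DRE) core, for the 34 LEA genes higher in WT seeds, the 14 higher in WT flowers and all 27431 protein-coding genes. The ABRE core is in 88.2% of the seed-high windows, 35.7% of the flower-high windows and 22.9% of all.

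The known regulators were read beside the family. Of 13 seed maturation regulators, 11 were tested and 9 were higher in WT seeds, with 0 lower. ABI3, a B3 factor of embryo maturation, had 218, 217 and 251 CPM in WT seeds and 0 counts in WT flowers, and ABI5, a bZIP factor that binds the abscisic acid response element, had 210, 231 and 297 CPM in WT seeds and 10.8, 18.0 and 11.2 CPM in WT flowers. FUS3, ABI4, EEL, BZIP10, BZIP67, L1L and DOG1 were also called higher. Of 13 genes of abscisic acid signalling, 8 were higher in seeds and 4 lower. The phosphatase gene AHG1 rose most, to 325, 377 and 514 CPM in WT seeds against 0, 0.0277 and 0.0900 CPM in WT flowers, while the bZIP genes ABF1, ABF2 and ABF3 and the kinase gene SNRK2.6 were lower. Of 9 genes of abscisic acid synthesis and breakdown, 6 were higher in seeds and 2 lower. Of the 4 cold regulators, ICE1 was higher in seeds, and CBF1, CBF2 and CBF3 were higher in flowers, at low counts. CBF3 had 0 counts in WT seeds and 3.63, 9.55 and 1.98 CPM in WT flowers.

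The comparisons of genotypes ask whether the urt1-1 and heso1-4 alleles changed the steady-state level of these RNAs. In none of the 6 comparisons of a mutant with WT was a LEA gene called by edgeR at an adjusted p under 0.05, nor by DESeq2. These fits hold no block for the replicate number. With such a block edgeR called 1, M17 in seeds labelled heso1-4 urt1-1 (0.47, adjusted p = 0.0325), as given with the processing. In seeds labelled heso1-4 urt1-1, 0 of 44 LEA genes tested were called, beside 0.0557% of 17939 genes, and 3 had an unadjusted p under 0.05, beside 8.62% of all genes. In urt1-1 seeds 0 of 44 were called (0.0279% of all genes) and 2 had an unadjusted p under 0.05 (6.90% of all genes). In seeds labelled heso1-4, 0 of 44 were called (0.0111% of all genes) and 4 had an unadjusted p under 0.05 (3.76% of all genes). In flowers 0 of 35 LEA genes were called and 0 had an unadjusted p under 0.05 in each comparison. Over all 22841 genes tested in flowers, 0.0131% were called in heso1-4 urt1-1, 0.00876% in urt1-1 and 0.00876% in heso1-4, and 646, 593 and 623 genes had an unadjusted p under 0.05. With so few genes called at all, a count of 0 does not set the family apart from other genes. Without the block, the standard error of a LEA gene's log2 fold change had a median of 0.19 in seeds and 0.42 in flowers. Changes several times their own SE, given below, were not called in these fits either.

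The medians stayed near 0. In seeds the median log2 fold change of the 44 LEA genes against WT was -0.09 in heso1-4 urt1-1, -0.09 in urt1-1 and -0.02 in heso1-4, with 30, 32 and 24 genes below 0. In flowers the median over 35 genes was -0.00 in heso1-4 urt1-1, 0.16 in urt1-1 and -0.02 in heso1-4. Medians over all genes tested lay between -0.01 and 0.01 in these 6 comparisons. The family's summed level was 65058 ± 4306 CPM in heso1-4 urt1-1, 62253 ± 12268 in urt1-1, 65372 ± 6105 in heso1-4 and 68357 ± 13267 CPM in WT seeds (SD, n = 3 each). In flowers it was 1458 ± 357 CPM in heso1-4 urt1-1, 1683 ± 238 in urt1-1, 1687 ± 374 in heso1-4 and 1508 ± 186 CPM in WT. Each mutant mean lay within 1 SD of the WT mean in both tissues.

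**Figure D3:**
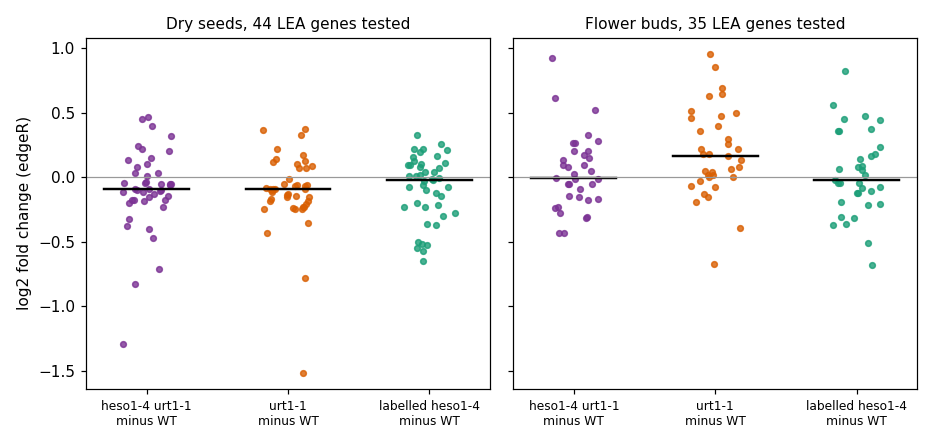
log2 fold changes (edgeR) of each LEA gene tested, mutant over WT, in dry seeds (left, 44 genes) and flower buds (right, 35 genes), for heso1-4 urt1-1, urt1-1 and the libraries labelled heso1-4; each point is a gene and the bar is the median. The medians lie between -0.09 and 0.16; the lowest and highest single genes are -1.52 and 0.47 for seeds, and -0.68 and 0.96 for flowers.

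The smallest p-values in seeds with urt1-1 fell on the same 3 genes in both mutants that carry it, a comparison that shares the WT libraries. AT2G42560, a LEA_4 gene at chr2:17714638-17716912, had 245, 304 and 236 CPM in heso1-4 urt1-1 seeds, 224, 262 and 258 in urt1-1, 461, 379 and 218 in heso1-4 and 421, 326 and 529 CPM in WT. All 6 libraries with urt1-1 lay below all 3 WT libraries, while the library labelled heso1-4 replicate 3 was the lowest of the 12. Its log2 fold change against WT was -0.71 ± 0.24 in heso1-4 urt1-1 (edgeR, adjusted p = 0.461) and -0.79 ± 0.24 in urt1-1 (adjusted p = 0.572).

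AT2G21490, a dehydrin, had 2962, 3370 and 2866 CPM in heso1-4 urt1-1 seeds, 2590, 3081 and 3311 in urt1-1, 3446, 4109 and 3414 in heso1-4 and 3599, 4054 and 4416 CPM in WT. Again no library with urt1-1 reached a WT library. M17, an AtM gene, went the other way, with 367, 306 and 376 CPM in heso1-4 urt1-1 seeds, 330, 300.2 and 357 in urt1-1, 286, 194 and 341 in heso1-4 and 279, 197 and 283 CPM in WT. For AT2G21490 the log2 fold change was -0.40 ± 0.15 in heso1-4 urt1-1 (edgeR, adjusted p = 0.486) and -0.44 ± 0.15 in urt1-1 (adjusted p = 0.614), and for M17 it was 0.45 ± 0.18 (adjusted p = 0.520) and 0.37 ± 0.18 (adjusted p = 0.740). Groups without overlap were common: 3 of 44 LEA genes, these same ones, did not overlap with WT in heso1-4 urt1-1 and in urt1-1 seeds, against 16.8% and 13.0% of all genes.

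Averaging the 2 groups with urt1-1 and setting them against the 2 without it uses all 12 seed libraries. In that comparison 0.256% of all genes and 0 of 44 LEA genes were called by edgeR, and 4 LEA genes had an unadjusted p under 0.05, beside 15.6% of all genes. AT2G42560 stood at -0.61 ± 0.17 (edgeR, adjusted p = 0.136), AT2G21490 at -0.35 ± 0.11 (adjusted p = 0.154), M17 at 0.36 ± 0.13 (adjusted p = 0.204) and AT1G72100 of LEA_4 at 0.31 ± 0.12 (adjusted p = 0.216). DESeq2 called 2 of them, AT2G42560 (adjusted p = 0.0118) and AT2G21490 (adjusted p = 0.00921). With the replicate number as a block, 3 LEA genes were called: AT2G21490 at -0.35 (adjusted p = 0.0195), M17 at 0.38 (adjusted p = 0.00544) and the cold-inducible dehydrin LTI30 at -0.31 (adjusted p = 0.0366). The background moved as well, to 488 genes called by DESeq2 and 1128 under the block, against 46. Without the library labelled heso1-4 replicate 3, AT2G42560 was called at -0.74 (edgeR, adjusted p = 0.0244). LTI30 had 730, 538 and 845 CPM in heso1-4 urt1-1 seeds, 529, 611 and 930 in urt1-1, 794, 763 and 972 in heso1-4 and 739, 722 and 1163 CPM in WT, groups that overlap. Over 18 alternatives the log2 values of AT2G42560 ranged from -0.74 to -0.49, those of AT2G21490 from -0.38 to -0.30 and those of M17 from 0.27 to 0.45.

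**Figure D4:**
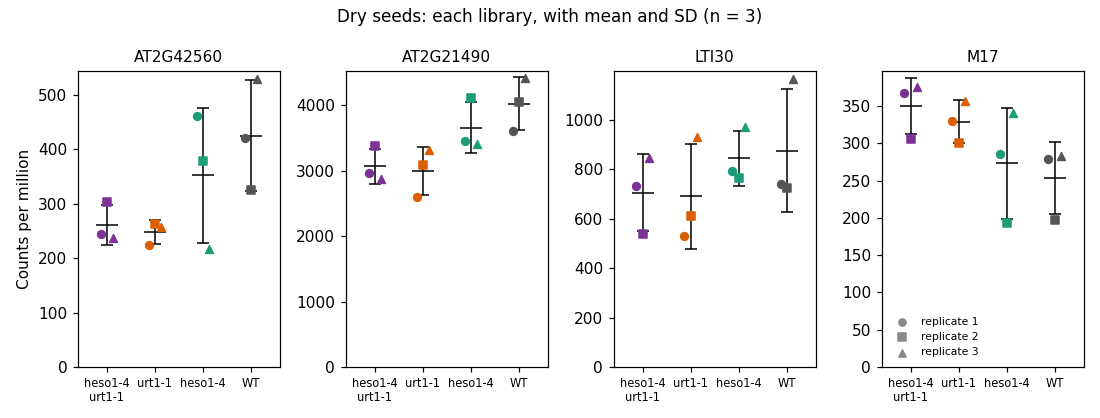
CPM of AT2G42560, AT2G21490, LTI30 and M17 in each dry seed library of heso1-4 urt1-1, urt1-1, the libraries labelled heso1-4, and WT, with the mean and SD of 3 libraries and marker shapes for replicate numbers. The 6 libraries with urt1-1 lie below the 3 WT libraries for AT2G42560 and AT2G21490 and above them for M17, while LTI30 overlaps.

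In seeds labelled heso1-4 the smallest p-values were those of AT4G21020 (-0.52 ± 0.21), AT2G18340 (-0.58 ± 0.22) and AT2G46140 (0.32 ± 0.14), each with an adjusted p of 1.00 (edgeR). AT4G21020, a LEA_4 gene, had 879, 774 and 611 CPM in heso1-4 seeds and 891, 869 and 1476 CPM in WT, which overlap. AT2G18340, also LEA_4, had 125, 112 and 69.2 CPM in heso1-4 seeds and 123, 127 and 205 CPM in WT, and its lowest value was again that of replicate 3. AT2G46140, a LEA_2 gene, had 16.8, 19.3 and 19.7 CPM in heso1-4 seeds and 13.5, 14.6 and 16.1 CPM in WT, without overlap, 1 such gene of 44 against 7.26% of all genes.

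In flowers the smallest p-values fell on other genes, and each of the 9 adjusted p-values was 1.00 (edgeR). ERD14 was at 0.26 ± 0.25 in heso1-4 urt1-1 and 0.46 ± 0.25 in urt1-1, with 220, 272 and 182 CPM in heso1-4 urt1-1 flowers, 286, 278 and 208 in urt1-1 and 184, 247 and 137 CPM in WT. AT1G72100 was at 0.92 ± 0.50 and 0.86 ± 0.50 in the same mutants, with 1.07, 0.842 and 0.405 CPM in heso1-4 urt1-1, 1.06, 0.583 and 0.557 in urt1-1 and 0.605, 0.277 and 0.337 CPM in WT. AT2G33690 of PvLEA18, at 7.15, 7.19 and 6.54 CPM in heso1-4 urt1-1 flowers and 5.07, 6.01 and 5.74 CPM in WT, was the only LEA gene whose libraries did not overlap with WT in that comparison, against 7.99% of all genes. In flowers of urt1-1 and in those labelled heso1-4, 0 of 35 LEA genes lay apart from WT, against 6.91% and 8.14% of all genes. AT4G36600 of LEA_4 had 3.03, 1.32 and 1.24 CPM in urt1-1 flowers and 2.73, 3.24 and 3.06 CPM in WT (-0.68 ± 0.32). In flowers labelled heso1-4, AT2G23120 had 39.2, 76.1 and 59.4 CPM against 47.1, 36.7 and 35.6 CPM in WT (0.56 ± 0.35), HIRD11 had 198, 227 and 317 CPM against 220, 134 and 195 CPM in WT (0.45 ± 0.30), and AT5G27980 had 3.71, 3.73 and 1.91 CPM against 7.80, 4.43 and 2.86 CPM in WT (-0.68 ± 0.46). All of these groups overlapped apart from AT2G33690.

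The remaining comparisons of genotypes gave 0 calls among LEA genes by edgeR and 0 by DESeq2. In seeds, heso1-4 urt1-1 over urt1-1 had 0 LEA genes with an unadjusted p under 0.05 (0.0390% of all genes called, 1.27% with an unadjusted p under 0.05), heso1-4 urt1-1 over heso1-4 had 3 (0.0725% and 10.6%), and groups with over groups without heso1-4 had 0 (0.0167% and 2.11%). In flowers the same comparisons had 0 (0.0131% of all genes called, 318 genes with an unadjusted p under 0.05), 0 (0.0131% and 644 genes) and 1 (0.0131% and 502 genes), and groups with over groups without urt1-1 had 1 (0.0175% and 800 genes). For a departure from additivity of the alleles, 2 LEA genes had an unadjusted p under 0.05 in seeds (0.0111% of all genes called, 2.05% unadjusted) and 0 in flowers (0.00438% called and 436 genes unadjusted). For the difference of a mutant's effect between tissues, 0 LEA genes had one for heso1-4 urt1-1 (0.00425% and 5.79%), 5 for urt1-1 (0.00% and 5.48%) and 2 for heso1-4 (0.00425% and 4.31%). Over the 229 tests of LEA genes for additivity and tissue differences the smallest adjusted p was 0.872 (edgeR). Only 29 of the 50 genes tested for tissue differences passed the filter in each tissue alone. For the rest, counts in 1 tissue were too low, so these tests cannot show whether a mutant's effect was alike in both. The regulator lists held 0 calls in every comparison of genotypes. Their smallest p-values were those of BZIP53 (-0.63 ± 0.17, edgeR, adjusted p = 0.135) and ABI5 (0.33 ± 0.10, adjusted p = 0.156) in seeds with urt1-1 against those without. In the other lists ABI1 stood at -0.64 ± 0.19 (adjusted p = 0.321) in heso1-4 urt1-1 seeds over heso1-4 seeds. ABF4 stood at 0.36 ± 0.11 in heso1-4 urt1-1 flowers over WT flowers, AAO3 at -0.32 ± 0.11 in heso1-4 urt1-1 flowers over urt1-1 flowers, and CBF2 and CBF3 at 1.76 ± 1.06 and 1.11 ± 1.01 in heso1-4 flowers over WT flowers (adjusted p = 1.00 each). NCED5 stood at 0.98 ± 0.35 (adjusted p = 0.878) for the tissue difference of urt1-1.

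Of the 29 LEA genes tested in both tissues, 10 had the larger coefficient of variation in seeds and 19 in flowers, with medians of 20.8% over the 12 seed libraries and 33.0% over the 12 flower libraries. Levels differed widely between the tissues. ECP31 had a median of 0.137 CPM in flowers, and HIRD11 a median of 3.40 CPM in seeds. These coefficients thus do not separate steadiness from level, and were not compared with all genes. Some genes followed the replicate number. Across the 12 seed libraries the coefficient of variation of LEA18 was 9.28% and that of LEA4-5 11.4%, while the flower-high COR47 and HIRD11 reached 44.8% and 50.8%. Among 44 seed-tested LEA genes, 15 were lowest in urt1-1 replicate 1 and 12 in the library labelled heso1-4 replicate 3, and 17 were highest in WT replicate 3. In flowers AT2G44060 was the steadiest, with a coefficient of variation of 9.98%. COR15A ranged from 64.6 to 105 CPM in the 4 replicate 1 libraries, against 221 to 338 in replicate 2 and 215 to 358 in replicate 3, in every genotype. COR15B ranged from 19.4 to 33.3 CPM in replicate 1, against 88.9 to 143 and 90.7 to 138 CPM in replicates 2 and 3. The labels do not say what a replicate number stands for.

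Markers of anther cells moved with several of the LEA genes in flowers. The tapetum is the nursing layer around developing pollen, and the summed level of 11 tapetum markers was 0 to 5.26 CPM in seeds and 219 to 890 CPM in flowers. AT2G03740 was lowest in replicate 1 of urt1-1 (11.3 CPM), heso1-4 urt1-1 (13.9) and heso1-4 (29.7), and the tapetum sum was lowest in the same 3 libraries in the same order, at 219, 349 and 425 CPM. The next 2 in both orders were WT replicate 2 (44.2 CPM, tapetum 486) and WT replicate 1 (46.6 CPM, tapetum 515), and AT2G03740 reached 81.7 CPM in urt1-1 replicate 3, where the tapetum sum was 753 CPM. AT2G03850 had the same 5 lowest libraries in the same order, with 15.1, 18.2, 32.1, 46.2 and 49.8 CPM. The high ends matched less closely. WT replicate 3 had the highest tapetum sum, at 890 CPM, with AT2G03740 at 67.1 and AT2G03850 at 62.9 CPM. Both genes were highest in urt1-1 replicate 3. AT5G27980 was highest in urt1-1 replicate 1 (9.36 CPM), WT replicate 1 (7.80) and urt1-1 replicate 2 (7.52), which also held the 3 highest sums of 11 mature pollen markers, at 1375, 1458 and 1074 CPM. It was at 1.91 to 2.89 CPM in the 4 replicate 3 libraries, where the pollen sums were 457 to 586 CPM. COR47 and SAG21 had the same 3 highest libraries as AT5G27980, with 240, 219 and 196 CPM for COR47 and 87.5, 74.4 and 53.1 CPM for SAG21 in urt1-1 replicate 1, WT replicate 1 and urt1-1 replicate 2. COR15A, COR15B and LTI30 were lowest in the same 3 libraries as AT2G03740. Of the 35 LEA genes tested in flowers, 5 had their 3 lowest libraries where the tapetum sum had its own, and 1 its 3 highest. For the pollen sum 3 genes shared its 3 highest libraries, and 2, LEA4-5 and AT4G13230, its 3 lowest. The share of all genes tested that match in this way was not counted, so these counts do not set the family apart. The libraries lowest for AT2G03740, AT2G03850, COR15A, COR15B and LTI30 are all replicate 1. The marker sums followed the replicate number too. For replicates 1, 2 and 3 the median tapetum sum was 387, 546 and 710 CPM. The median pollen sum was 1139, 833 and 525 CPM, and the median of AT5G27980 was 5.81, 4.48 and 2.77 CPM. Anther markers and replicate number were not told apart here. The part of the anther cells in these levels was not tested, and none of these genes was called in a comparison of genotypes by edgeR without the replicate block.

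**Figure D5:**
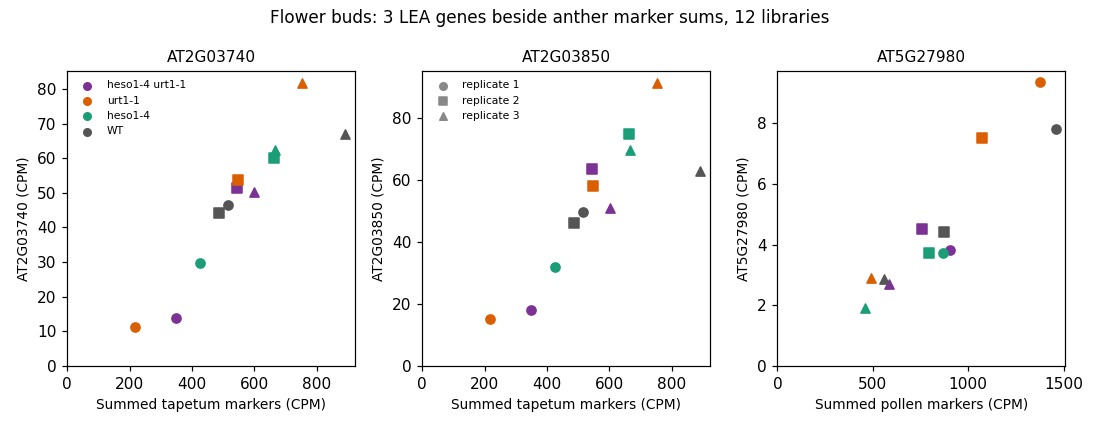
CPM of AT2G03740 and AT2G03850 against the summed CPM of 11 tapetum markers, and of AT5G27980 against the summed CPM of 11 mature pollen markers, in the 12 flower bud libraries; colour gives the genotype as labelled and shape the replicate number. The 5 libraries lowest for AT2G03740 and AT2G03850 are the 5 lowest for the tapetum sum, and the 3 highest for AT5G27980 are the 3 highest for the pollen sum. The library with the highest tapetum sum, WT replicate 3, is the highest for neither AT2G03740 nor AT2G03850.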

How the data were processed

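Per the file headers, the authors counted reads per gene with featureCounts 2.0.6 over whole gene spans, by strand, counting a read for every gene it overlaps; the recorded command is incomplete. The submitters' processing notes name HISAT2 2.2.1 and TAIR10. The deposited values are raw counts, and each is used as deposited.

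edgeR 4.0.16 in R 4.3.3 (TMM, filterByExpr with a minimum count of 10 and total of 15, robust quasi-likelihood fits) was run over the 12 libraries of a tissue for genotypes and over all 24 for tissues, with Benjamini-Hochberg adjustment over all genes tested. Of the 51 LEA genes, 44 were tested in seeds, 35 in flowers and 50 over both. CPM are scaled by the TMM factors of all 24 libraries. A gene could enter only by its level in some group, so counts of calls are over the genes tested. DESeq2 1.42.0 was an alternative, beside other scaling, no filter, a replicate block, nuclear genes only, 2-group fits and leaving out each library. The edgeR fit was tested on simulated data.

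Same-numbered libraries correlated over 0.1 in every pair in 7 of 10 comparisons of 2 groups (lowest 0.105), a pairing seen in the data and not stated in the labels; in seeds with WT it held for urt1-1. Windows and coordinates are from RefSeq TAIR10.1; all 51 LEA genes matched. No window of 50 bases from 48 of the 51 genes occurs elsewhere in the genome. Counting error alone underlies intervals and floors. Depth per library and labels come from the deposited tables. Named by rule are genes called between genotypes, the 3 smallest p-values per mutant and tissue, and the top of each family per tissue. The rule also takes the 5 steepest changes each way between tissues. AT3G53040, ERD10 and some other genes fall outside it, and the printed windows were not picked by it. Other genes in the passage on replicate numbers were chosen after their values were seen. The members and gene lists were chosen with earlier results of these data known. The labels call replicates biological.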

Additional observations from a re-analysis of the deposited data

How the results depend on the processing

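The count of LEA genes called changed by more than 1.5 times in 2 comparisons. In seeds labelled heso1-4 urt1-1 against WT it was 1 with the replicate block (M17, 0.47, adjusted p = 0.0325), against 0 without it; not every pair correlates there. For seeds with against without urt1-1 it was 3 with the replicate block, 2 with DESeq2 and 0 to 1 when single libraries were left out, against 0. Between WT seeds and WT flowers it was 47 to 48 when single libraries were left out, against 48. In every other comparison of genotypes no alternative called a LEA gene, and the block changed no other call of the family. The block and DESeq2 raised the calls over all genes: from 5 to 90 and 15 in urt1-1 seeds against WT, from 10 to 206 and 78 in heso1-4 urt1-1 seeds against WT, and from 13 to 205 and 107 in heso1-4 urt1-1 against heso1-4 seeds. For seeds with against without urt1-1, 46 genes were called, 131 without the low-count filter and 11 to 161 when single libraries were left out. In flowers DESeq2 called 3 to 44 genes in the comparisons where its count differed most. Leaving out single libraries moved the LEA median between -0.12 and 0.032 for heso1-4 urt1-1 over heso1-4 seeds, between 6.70 and 7.37 for WT seeds over WT flowers, and between -0.45 and 0.048 for the tissue difference of urt1-1; SAG21 then ranged from -0.29 to 0.62 and DI21 from -0.33 to 0.084, and neither passed the test. AT4G38410 lost its call with DESeq2 size factors (2.36, adjusted p = 0.0559), without the low-count filter (2.43, adjusted p = 0.0620) and in 4 of the fits without a library, where it ranged from 1.93 to 4.48. Halving every count, chosen after seeing the data because many low counts were even, changed no LEA call. The cause of these changes was not tested. Depth limits the 21 LEA genes under 1 CPM in WT flowers and the 9 in WT seeds.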
